A study of Mus musculus with 8 samples.

Results

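Peaks of RNA:DNA hybrid signal at the genes of cytosolic ribosomal proteins were examined in mouse muscle stem cells (MuSCs) with and without Kmt5b. The set held every autosomal union peak assigned in the peak table to a protein-coding gene with a symbol starting with Rpl or Rps and a digit, without the Rps6k kinases and without names ending in l or ps. The rule found 58 peaks in 54 genes, of 28265 union peaks in all. Of these, 56 peaks in 52 genes belonged to structural proteins of the ribosome. The other 2 peaks belonged to Rpl7l1, a paralog of Rpl7, and to Rps23rg1, a retrogene derived from Rps23. The peak count of the table is a count of regions, and several regions could belong to 1 gene.

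The S9.6 antibody, which binds RNA:DNA hybrids, was used for DNA-RNA immunoprecipitation sequencing (DRIP-seq) of cultured MuSCs. There were 3 S9.6 libraries from Ctrl mice (genotype label Pax7CreERT/Suv4-20h1WT) and 3 from Kmt5b sKO mice (Pax7CreERT/Suv4-20h1KO). Suv4-20h1 is another name of Kmt5b, which encodes a methyltransferase of lysine 20 of histone H4. Both genotypes carried the tamoxifen-inducible Cre of the Pax7 locus, which is active in MuSCs, and adult mice received tamoxifen before isolation. The cells were enriched with magnetic beads from limb and trunk muscle and then cultured. The study counted the libraries of a genotype as biological replicates, and the labels do not name the mice. MuSC identity could be checked only by peaks: of 7 MuSC and myoblast markers, Pax7, Myod1, Itga7 and Des carried peaks, and of 7 endothelial, immune, fibro-adipogenic and mural markers only Pecam1 did. The highest mean Ctrl scores were 651 at Pax7, 528 at Myod1 and 952 at Des. At Itga7 it was 44.3, below the 53.0 of Pecam1, so the presence of a peak did not settle the identity of the cells.

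R-loops form where a nascent RNA pairs with its template strand behind the RNA polymerase and leaves the other DNA strand unpaired. They are found at start sites with an excess of G over C on the coding strand, along highly transcribed genes and at their ends. Genes of ribosomal proteins are short, have many introns, are among the most transcribed genes of a growing cell and share a start site within a run of pyrimidines, the 5′ terminal oligopyrimidine (TOP) motif. Their introns often encode small nucleolar RNAs (snoRNAs), which guide the modification of ribosomal RNA. Proteins of the large subunit carry the prefix Rpl and those of the small subunit Rps.

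The start sites of 12 structural genes were chosen because their peaks were among the 5 highest in summed score or in Ctrl score per kb, were called on the transcript, or were lower at an adjusted p under 0.1. Of these, 11 matched the RefSeq promoter sequences and are shown. Each line runs 5′ to 3′ on the coding strand from 40 bases before to 30 bases from the RefSeq start site, in GRCm38.p6. Capitals mark the longest run of pyrimidines in this window, and each such run where runs of the same length tie.
Rps15a (chr7:118116118-118116187, minus strand): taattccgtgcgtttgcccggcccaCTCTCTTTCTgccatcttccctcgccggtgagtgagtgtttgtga
Rps18 (chr17:33955636-33955705, minus strand): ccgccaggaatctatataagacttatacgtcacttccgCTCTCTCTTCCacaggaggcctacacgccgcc
Rps19 (chr7:24884552-24884621, plus strand): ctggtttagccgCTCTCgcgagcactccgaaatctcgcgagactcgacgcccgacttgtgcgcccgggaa
Rps6 (chr4:86857338-86857407, minus strand): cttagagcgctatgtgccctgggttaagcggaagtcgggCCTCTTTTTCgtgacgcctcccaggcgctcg
Rpl12 (chr2:32961672-32961741, plus strand): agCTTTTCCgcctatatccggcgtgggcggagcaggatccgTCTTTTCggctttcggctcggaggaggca
Rpl19 (chr11:98026884-98026953, plus strand): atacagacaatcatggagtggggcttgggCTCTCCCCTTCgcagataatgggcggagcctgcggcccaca
Rpl7a (chr2:26910767-26910836, plus strand): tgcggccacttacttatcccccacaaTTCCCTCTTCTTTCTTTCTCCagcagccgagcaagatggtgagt
Rpl4 (chr9:64173347-64173416, plus strand): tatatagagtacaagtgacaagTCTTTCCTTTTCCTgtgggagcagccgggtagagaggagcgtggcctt
Rpl14 (chr9:120571477-120571546, plus strand): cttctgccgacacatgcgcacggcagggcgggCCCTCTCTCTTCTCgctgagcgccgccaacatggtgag
Rps15 (chr10:80292391-80292460, plus strand): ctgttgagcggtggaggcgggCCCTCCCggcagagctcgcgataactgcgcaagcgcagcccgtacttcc
Rpl41 (chr10:128549139-128549208, minus strand): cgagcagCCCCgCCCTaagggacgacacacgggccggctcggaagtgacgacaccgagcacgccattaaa

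The longest run had 21 bases in Rpl7a, 14 in Rpl4 and in Rpl14, 11 in Rps18 and Rpl19 and 10 in Rps15a and Rps6. It had 7 bases in Rpl12 and Rps15, 5 in Rps19 and 4 in Rpl41, and in Rpl12 and Rpl41 2 runs tied. Of the 52 structural genes with a peak, 39 matched a start site of the RefSeq promoter sequences. The longest run spanned the start site in Rps18, Rps6, Rpl7a and Rpl14. It lay wholly before the start site in Rps15a, Rps19, Rpl19, Rpl4, Rps15 and Rpl41, and in Rpl12 the tied runs lay on either side. A pyrimidine run of at least 8 bases lay in the window of 22 of these 39 (56.4%), against 26.4% of 21262 promoters of protein-coding genes. A run anywhere in the window was counted, so these are not shares of TOP motifs at the start site. The motif CCGGAAG, a core of the sites of ETS factors, occurred on either strand of the 300 bases around the start site in 11 of 39 (28.2%), against 11.6% of coding promoters. The presence of these letters is a description of the sequence and not of a bound factor.

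The peaks followed the transcripts closely. A total of 53 peaks in the 52 structural genes overlapped the RefSeq Select transcript, which had a median length of 3164 bp. Measured in the direction of transcription, the first edge of the peak lay within 500 bp of the start site in 35 of 53 (66.0%). The start site itself was covered in 22 (41.5%) and the transcript end in 43 (81.1%). At least 90% of the transcript was covered in 37 peaks, the whole transcript in 19, and the median covered share was 96.6%. Peaks ran a median of 1619 bp past the transcript end (quartiles 626 and 2521 bp), and 37 of 53 (69.8%) ran on for at least 1 kb. The Rpl37 peak ran farthest, to 5860 bp past the end, and the Rps19 peak ran to 5189 bp past it.

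For comparison, 1402 other coding peaks lay on transcripts no longer than that of Rps15a, at 11774 bp the longest of the set. Of these, 23.8% had their first edge within 500 bp of the start site, 46.6% covered the transcript end and 33.0% ran at least 1 kb past it, with a median covered share of 42.8%. Their median transcript was longer (7444 bp) and their median peak shorter (3400 against 4800 bp), so the shares differ in what a peak had to span. No test was made of this difference. Over the first 500 bp from the start site, G exceeded C on the coding strand in 44 of 53 (83.0%) and in 72.6% of the comparison peaks.

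**Figure D1:**
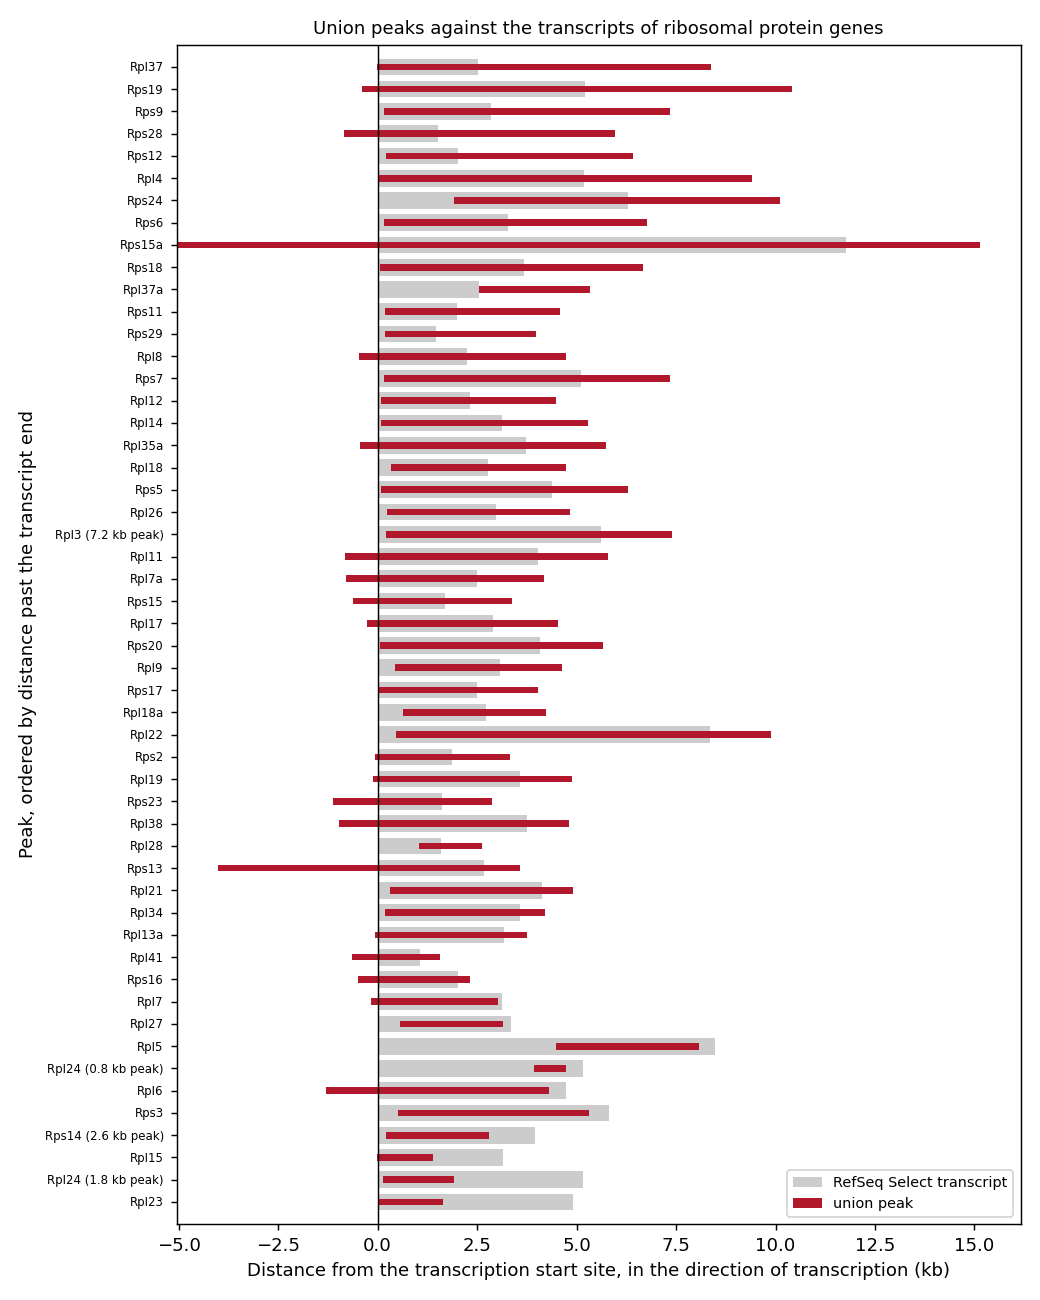
Position of 52 of the 53 union peaks that overlapped a structural ribosomal protein transcript (red) against that transcript (grey), in kb from the transcription start site and in the direction of transcription. Rows are ordered by how far the peak ran past the transcript end; over all 53, 35 peaks began within 500 bp of the start site and 37 ended at least 1 kb past the transcript end.

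A few peaks departed from this pattern. The Rpl37a peak covered only 0.51% of its transcript and lay almost wholly behind its end, reaching 2787 bp past it. The Rpl5 peak began 4473 bp inside its transcript and stopped 405 bp before its end. Rpl15 and Rpl23 carried short peaks at the start of the gene, which stopped 1778 and 3275 bp before the transcript end. The Rps13 peak began 4010 bp before the start site and overlapped 936 bp of Pik3c2a, which is read in the same direction.

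In 3 further cases the peak lay off the RefSeq Select transcript of the gene to which it was assigned, because the gene model of the table was longer. Both short peaks of Rpl3, chr15:80084200-80085199 and chr15:80088000-80089399, began 1794 and 5994 bp before its start site in the direction of transcription. They ended 6420 and 10220 bp before the transcript end and touched no part of the 5626 bp transcript. The longer peak of Rps14 likewise ended 18946 bp before the end of a transcript of 3951 bp. Over all 58 peaks, the distance from peak centre to start site differed by more than 500 bp between the table and RefSeq Select in 9, and by a median of 36 bp.

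Other genes lay under these peaks too. Another protein-coding gene overlapped 15 member peaks, in 8 of them a gene on the opposite strand. In the peak of Rps28, 63.5% of the bases lay in Kank3, in that of Rpl28 65.9% lay in Ube2s, and in that of Rpl4 37.5% lay in Snapc5, which follows Rpl4 on the same strand. The scores carry no strand, so signal from a ribosomal protein gene and from such a neighbour cannot be told apart. Of the 52 structural genes, 20 held 42 snoRNA genes inside their transcripts, and 40 snoRNA genes lay wholly under member peaks.

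Scores are sums over a peak, so levels were compared between genes per kb of peak. The highest Ctrl scores per kb were found at Rpl12 (84.0), Rps6 (75.3), Rpl21 (73.3), Rpl19 (73.0) and Rpl7a (71.9). Rps6 is the ribosomal protein phosphorylated by S6 kinases, and Rpl12 forms part of the stalk base of the large subunit. The median over the 57 tested members was 42.3 per kb, against 28.9 over 25815 tested peaks. Member peaks were also longer (median 4600 against 2400 bp), richer in GC (48.1% against 42.4%) and poorer in soft-masked repeats (18.5% against 26.7%).

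As sums, the highest scores belonged to Rps15a, Rps19, Rps18, Rps6 and Rpl4. The Rps15a peak, at 20200 bp the longest of the set, scored 991, 1078 and 925 in the Ctrl libraries, given here and throughout in order of replicate number, and 840, 982 and 977 in Kmt5b sKO. Rps15a is a protein of the small subunit, and its peak also overlapped 2310 bp of Arl6ip1. The groups overlapped, with a log2 fold change of −0.10 ± 0.13 SE (adjusted p of 0.60, limma). Rps19, a small subunit protein mutated in Diamond-Blackfan anaemia, scored 653, 843 and 639 in Ctrl and 865, 873 and 845 in Kmt5b sKO. All Kmt5b sKO values were above all Ctrl values, by a log2 fold change of 0.29 ± 0.14 SE (adjusted p of 0.082, limma), which did not reach 1.5-fold. Ctrl replicate 2 lay close to the Kmt5b sKO values.

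At Rps18, a small subunit protein, the scores were 480, 507 and 404 in Ctrl and 504, 622 and 623 in Kmt5b sKO. Kmt5b sKO replicate 1 lay just below Ctrl replicate 2, and the fitted change was 0.33 ± 0.14 SE on the log2 scale (adjusted p of 0.052, limma). At Rps6 the scores were 496, 546 and 448 in Ctrl and 484, 472 and 522 in Kmt5b sKO. The ranges coincided, with a log2 fold change of −0.01 ± 0.14 SE (adjusted p of 0.97, limma). At Rpl21, Rpl19 and Rpl7a, also among the highest per kb, no change was called. Rpl21 scored 322, 389 and 301 in Ctrl and 266, 345 and 326 in Kmt5b sKO. Rpl19 scored 344, 454 and 297 in Ctrl and 399, 440 and 421 in Kmt5b sKO. In both genes, which encode large subunit proteins, the groups overlapped, with log2 fold changes of −0.11 (SE 0.15) at Rpl21 and 0.22 (SE 0.15) at Rpl19. Rpl7a, a large subunit protein with 3 intronic snoRNA genes under its peak, scored 357, 404 and 317 in Ctrl and 408, 462 and 408 in Kmt5b sKO, with the Kmt5b sKO values just above those of Ctrl. Its log2 fold change of 0.25 (SE 0.15) had a limma adjusted p of 0.17.

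**Figure D2:**
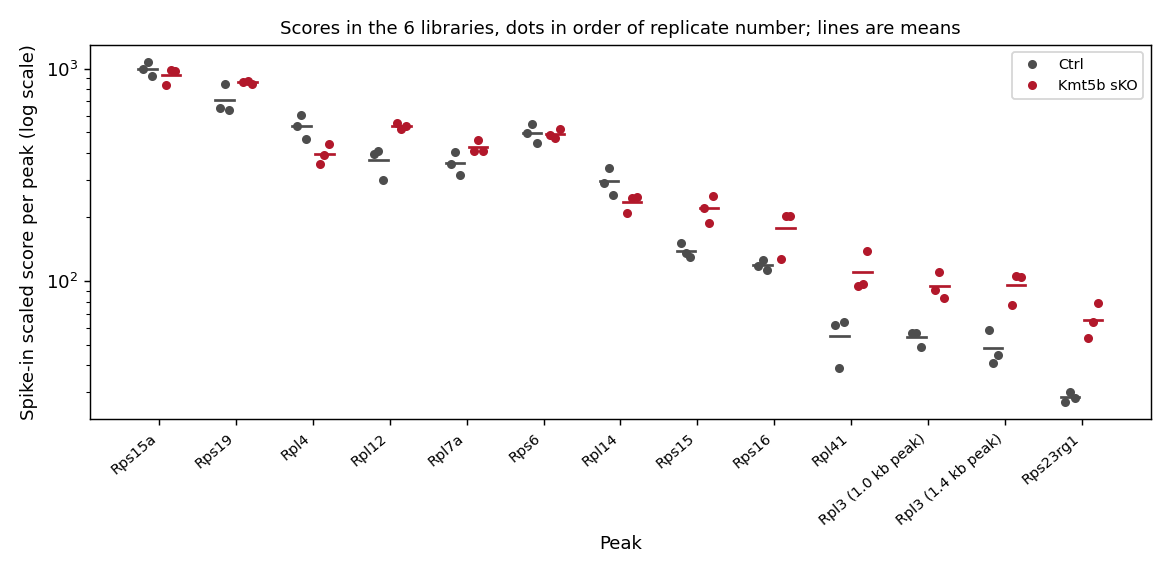
Spike-in scaled score (log scale) of 13 peaks in the 3 Ctrl (grey) and 3 Kmt5b sKO (red) libraries, each dot 1 library and each line the group mean. The Kmt5b sKO values lie above those of Ctrl at Rps19, Rpl12, Rpl7a, Rps15, Rps16, Rpl41, both short Rpl3 peaks and Rps23rg1, and below them at Rpl4 and Rpl14.

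Few ribosomal protein peaks were gained in Kmt5b sKO MuSCs, and most of their fold changes were small. A peak was called at a limma adjusted p under 0.1 over all 25815 tested peaks and a fold change over 1.5. Of 57 tested members, 5 were called higher in Kmt5b sKO, where 32.9% of all tested peaks were called higher. Over all tested protein-coding peaks this share was 22.9%. None of the 57 was called lower, where 0.883% of all tested peaks were. The 1 member that was not tested, a peak of 800 bp in Rpl24, had a mean score under 30, with 13, 37 and 22 in Ctrl and 20, 19 and 18 in Kmt5b sKO. Without the fold change minimum, 17 members passed upward and 2 downward, at a background of 42.0% and 3.15%. The median log2 fold change was 0.24 (quartiles 0.04 and 0.34) over the members, against 0.35 over all tested peaks and 0.25 over all tested protein-coding peaks. Kmt5b sKO was above Ctrl in every library at 22 members and below it at 2, at backgrounds of 41.5% and 3.81%.

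**Figure D3:**
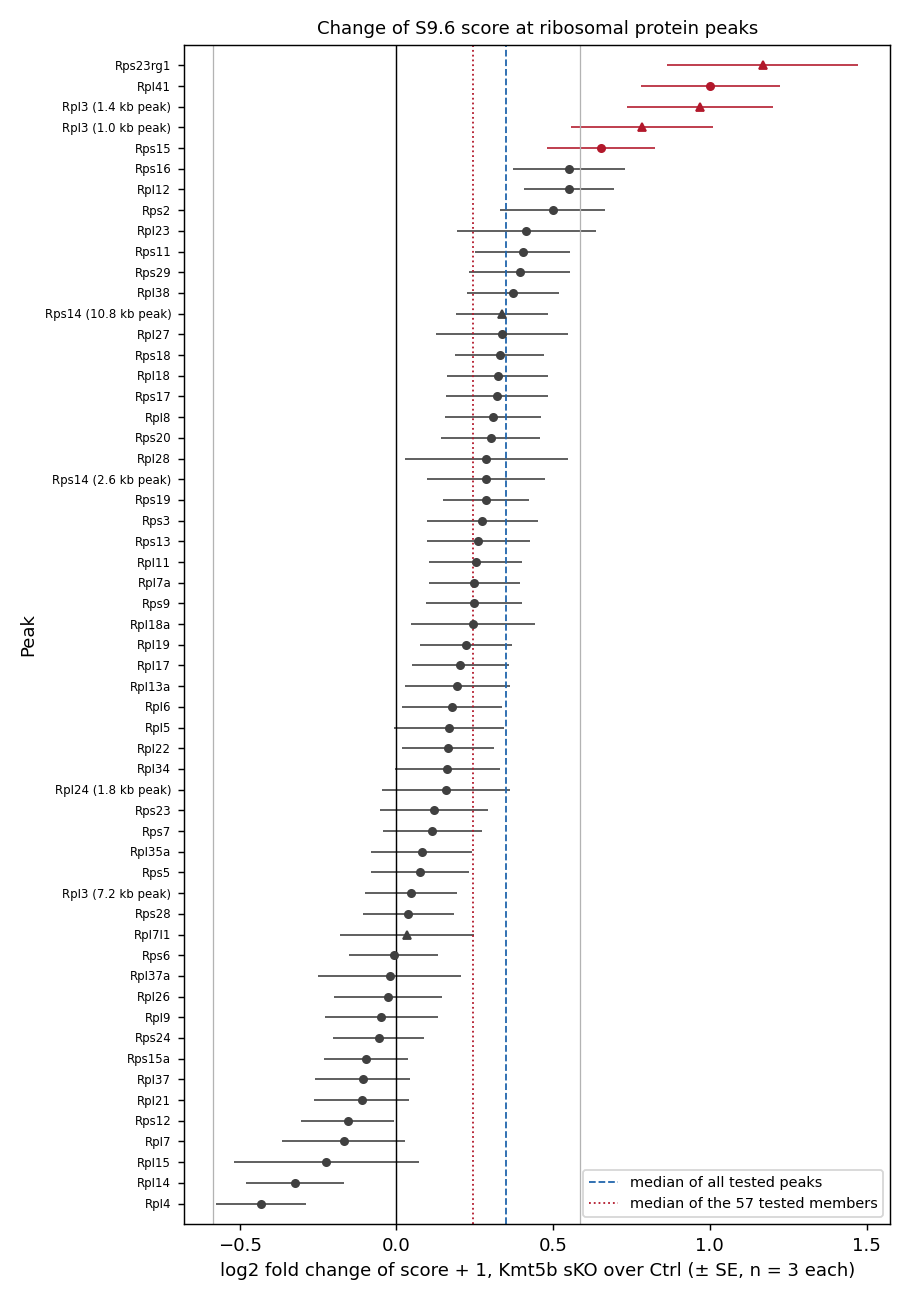
Fitted log2 fold change of score + 1 in Kmt5b sKO over Ctrl, with its SE, for 56 of the 57 tested peaks. Circles are peaks on the transcript of a structural ribosomal protein and triangles the other peaks; red marks the 5 peaks called higher, grey lines mark 1.5-fold, the dashed line the median of all tested peaks (0.35) and the dotted line that of the 57 tested members (0.24).

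On the transcripts of structural proteins, only Rpl41 and Rps15 were called, 2 of 52. Rpl41, a very short basic protein of the large subunit, scored 62, 39 and 64 in Ctrl and 95, 97 and 139 in Kmt5b sKO at chr10:128547600-128549799. The groups did not overlap, and Kmt5b sKO replicate 3 stood highest. The log2 fold change was 1.00 (SE 0.22) with a limma adjusted p of 8.7e-05. Rps15, a small subunit protein, scored 151, 136 and 129 in Ctrl and 221, 187 and 251 in Kmt5b sKO at chr10:80291800-80295799. Again the groups were apart, with a log2 fold change of 0.65 (SE 0.17) and a limma adjusted p of 0.0010. Without Kmt5b sKO replicate 3 the Rps15 peak was no longer called. Its call was also lost with libraries scaled to the same total (log2 fold change 0.45), centred on the median peak (0.19) or quantile normalized (0.43), and that of Rpl41 with centring (0.54) or quantile normalization (0.55). Both peaks covered the whole transcript and its start site.

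The other 3 called peaks lay elsewhere. The short Rpl3 peak next to the start site of this large subunit gene scored 57, 57 and 49 in Ctrl and 91, 110 and 83 in Kmt5b sKO, a log2 fold change of 0.78 ± 0.23 SE (adjusted p of 0.0031, limma). The more distant one scored 59, 41 and 45 in Ctrl and 77, 105 and 104 in Kmt5b sKO, a log2 fold change of 0.97 ± 0.23 SE (adjusted p of 0.00035, limma). In both, every Kmt5b sKO library was above every Ctrl library. The call of the nearer peak was lost with the same total (log2 fold change 0.58), centring (0.32) and quantile normalization (0.32), and that of the distant peak with centring (0.51) and quantile normalization (0.48). By contrast, the peak of 7200 bp on the Rpl3 transcript itself scored 423, 357 and 351 in Ctrl and 376, 377 and 412 in Kmt5b sKO, with overlapping groups and a log2 fold change of 0.05 ± 0.15 SE (adjusted p of 0.83, limma). The difference between the Rpl3 peaks was not tested. Soft-masked repeats made up 78.8% and 66.9% of the short peaks and 11.1% of the long one. Over all 25815 tested peaks the fold change rose with the soft-masked share (Spearman rho of 0.51). Over the 52 tested peaks on structural transcripts this rho was −0.09. Of all tested peaks up to 1200 bp, 67.8% were called higher, with a median log2 fold change of 0.88. For those of 1400 to 2000 bp the values were 47.5% and 0.56.

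The peak of Rps23rg1, chr8:3575200-3576399, lay 7203 bp inside its transcript and consisted of 62.4% soft-masked repeats. It scored 27, 30 and 28 in Ctrl and 54, 64 and 79 in Kmt5b sKO, the largest log2 fold change of the set at 1.17 (SE 0.31, limma adjusted p = 0.00097). The groups were well apart. The Ctrl mean of 28.3 lay under the minimum of 30, so the peak was tested only because its Kmt5b sKO scores were higher. Its call was lost with quantile normalization (log2 fold change 0.57). At 1200 bp it was also among the short peaks, of which 67.8% were called higher over all tested peaks. Rpl7l1, which is involved in the making of the large subunit, scored 73, 107 and 72 in Ctrl and 93, 74 and 88 in Kmt5b sKO, with overlapping groups and a log2 fold change of 0.03 ± 0.21 SE (adjusted p of 0.92, limma).

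Just below the fold change threshold were 3 structural genes. Rpl12 scored 398, 411 and 300 in Ctrl and 553, 519 and 538 in Kmt5b sKO, a log2 fold change of 0.55 ± 0.14 SE (adjusted p of 0.0010, limma). Rps16, a small subunit protein, scored 117, 126 and 112 in Ctrl and 127, 203 and 203 in Kmt5b sKO, a log2 fold change of 0.55 ± 0.18 SE (adjusted p of 0.0091, limma). Rps2, a small subunit protein of the mRNA entry site, scored 135, 179 and 153 in Ctrl and 229, 219 and 209 in Kmt5b sKO, a log2 fold change of 0.50 ± 0.17 SE (adjusted p of 0.012, limma). In all 3 the groups were separate, although Kmt5b sKO replicate 1 of Rps16 lay next to the Ctrl values. Without Ctrl replicate 2 these 3 peaks were called as well, which made 8 higher. The share of all tested peaks called higher without this library was not computed.

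The lowest fold changes were found at Rpl4 and Rpl14, both large subunit proteins with peaks on chromosome 9 that began within 100 bp of the start site. Rpl4 scored 537, 602 and 468 in Ctrl and 356, 393 and 440 in Kmt5b sKO at chr9:64173400-64182799. All Kmt5b sKO values were below all Ctrl values, by a log2 fold change of −0.43 ± 0.14 SE (adjusted p of 0.010, limma). Rpl14 scored 290, 339 and 255 in Ctrl and 209, 246 and 249 in Kmt5b sKO at chr9:120571600-120576799. Here the groups were separated by only a few units, with a log2 fold change of −0.32 ± 0.16 SE (adjusted p of 0.091, limma). Both passed the adjusted p and neither reached 1.5-fold.

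The next 3 genes with a negative fold change had groups that overlapped. Rpl15, a large subunit protein, scored 57, 49 and 41 in Ctrl and 35, 55 and 37 in Kmt5b sKO (log2 fold change −0.22, SE 0.30, limma adjusted p = 0.58). Rpl7, also of the large subunit, scored 107, 129 and 104 in Ctrl and 69, 106 and 138 in Kmt5b sKO (−0.17, SE 0.20, limma adjusted p = 0.53). Its lowest and its highest value were both Kmt5b sKO libraries. Rps12, a small subunit protein with 3 snoRNA genes under its peak, scored 333, 394 and 355 in Ctrl and 307, 346 and 317 in Kmt5b sKO (−0.16, SE 0.15, limma adjusted p = 0.43).

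Directions depended on the scaling of the libraries, since the median tested score was 1.38 times higher in Kmt5b sKO. The summed score over the 58 members was 13993, 15688 and 12917 in Ctrl and 15244, 16363 and 16248 in Kmt5b sKO. The mean of 15952 ± 616 (SD, n = 3) was 1.12 times that of Ctrl, 14199 ± 1397 (SD, n = 3), and Ctrl replicate 2 lay above Kmt5b sKO replicate 1. As a share of the score over all autosomal peaks, members made up 0.345% ± 0.015 (SD, n = 3) for Ctrl and 0.336% ± 0.008 (SD, n = 3) for Kmt5b sKO. When each library was centred on its median peak, which moved the median of all tested peaks to −0.11, the members' median log2 fold change turned to −0.21, with 1 called higher and 5 lower, at backgrounds of 10.3% and 11.9%. The 5 lower were Rpl4, Rpl14, Rpl7, Rps12 and Rpl15. Rpl4 was the lowest member with the deposited scaling and with centring, and was the only one called lower when libraries were scaled to the same total (log2 fold change −0.64, limma adjusted p = 8.0e-10), where 3 were called higher, at backgrounds of 3.12% lower and 21.6% higher. With quantile normalization only Rpl15 was called lower and none higher, at backgrounds of 7.70% and 8.02%. Among peaks with a mean score over 100, 1 of 46 members was called higher, at a background of 12.3%.

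Members were mostly long peaks, and long peaks were seldom gained. Tested peaks were split by length into 5 classes of like size, up to 1200 bp, 1400 to 2000 bp, 2200 to 3000 bp, 3200 to 5800 bp and from 6000 bp. Of the members 25 lay in the class of 3200 to 5800 bp and 19 in the longest. Of all tested peaks, 67.8% were called higher in the shortest class, 47.5%, 26.2% and 12.8% in the next 3 and 4.27% in the longest. Members called higher numbered 2 of 2, 1 of 5, 1 of 6, 1 of 25 and 0 of 19 from the shortest to the longest class. The median log2 fold change of the members was 0.24 in the class of 3200 to 5800 bp and 0.08 in the longest, against 0.19 and 0.06 over all peaks of those classes. Relative to the median of its length class, the median member stood at 0.02, and Rpl41 was the single call upward, at a background of 7.90%. Here only the fold change was shifted by the class median. The adjusted p stayed that of the main fit, so the difference from the class was not tested.

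Among the 52 tested peaks on structural transcripts, the fold change rose with the GC content of the peak (Spearman rho of 0.56, n = 52). Over all 25815 tested peaks the same correlation was −0.20, and over the 9681 peaks of the 2 longest classes it was 0.16. Within the class of 3200 to 5800 bp it was 0.57 for 25 members and 0.12 for 4665 peaks, and within the longest 0.63 for 18 members and 0.22 for 5016 peaks. The peaks share their libraries and are not independent. In the 26 peaks of higher GC (48.4 to 55.4%), which include Rps15 and Rpl41, the median log2 fold change was 0.30, and 25 were positive. In the 26 of lower GC (41.4 to 48.1%), which include Rpl4, Rpl14, Rps12 and Rpl7, it was 0.06, and 14 were positive. Rpl15 departed from this, with 53.4% GC and a log2 fold change of −0.22. With peak length the correlation was −0.31, with transcript length −0.36 and with distance past the transcript end −0.19. It was −0.09 with the soft-masked share, −0.07 with the G over C skew of the first 500 bp and −0.03 with the Ctrl score per kb. With the longest pyrimidine run of the start site window it was −0.25 (n = 39). GC content had the largest of these correlations.

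**Figure D4:**
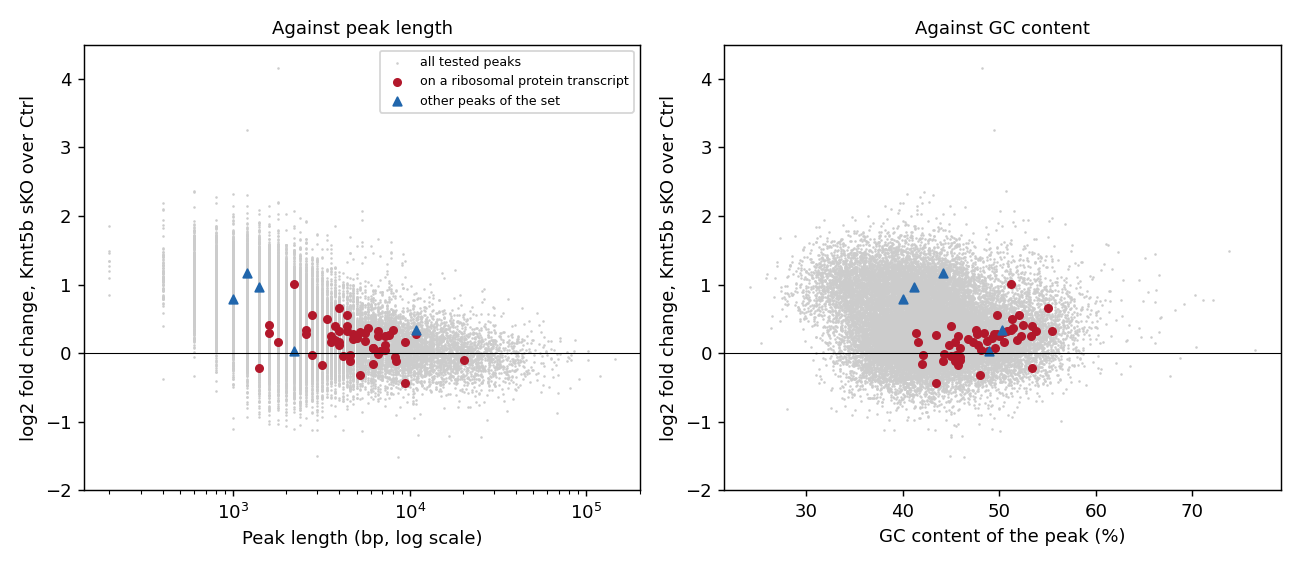
Fitted log2 fold change in Kmt5b sKO over Ctrl against peak length (left, log scale) and GC content (right) for all 25815 tested peaks (light grey), the 52 on structural ribosomal protein transcripts (red circles) and the 5 other members (blue triangles). Members sit mainly among longer peaks of small change, and on structural transcripts the change rises with GC (Spearman rho of 0.56).

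On the transcripts, 1 gene of each subunit was called, where 32.9% of all tested peaks were called higher. Of 30 large subunit genes with a tested peak on the transcript, 1 was called higher at a median log2 fold change of 0.17, and of 22 small subunit genes also 1, with a median of 0.28. The range was −0.43 (Rpl4) to 1.00 (Rpl41) in the large and −0.16 (Rps12) to 0.65 (Rps15) in the small subunit. Among 20 hosts of snoRNA genes none was called by limma, with a median of 0.25, and among the 32 other genes 2 were called, with a median of 0.16. The differences between these groups of genes were not tested.

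The assignment of 1 gene to each peak hid some ribosomal protein genes. The annotation held 69 structural autosomal genes of the rule, of which 52 carried a peak under their own name. Another 13 lay only under 14 peaks named for another gene, and 4 (Rps3a1, Rps25, Rps26 and Rpl30) lay under no peak. At least 1 peak thus overlapped 65 of the 69. The study's methods describe keeping only unique alignments, which leaves out reads shared by a gene and a near-identical copy. How many reads of these genes were left out in this way was not examined. Of the 14 peaks, 1 was called higher and none lower, at the background of 32.9% and 0.883%, and their median log2 fold change was 0.19. The called peak was named for Lonp1, a mitochondrial protease, and covered 75.8% of Rpl36, a large subunit gene. It scored 346, 392 and 307 in Ctrl and 565, 601 and 516 in Kmt5b sKO. The groups were far apart, with a log2 fold change of 0.69 ± 0.14 SE (adjusted p of 3.5e-05, limma). Signal from Rpl36 and from Lonp1 in this peak cannot be told apart. The peak over Rps27a, which encodes a fusion of ubiquitin and a small subunit protein, was named for Mtif2 and scored 203, 211 and 175 in Ctrl and 290, 294 and 233 in Kmt5b sKO. The groups did not overlap (log2 fold change 0.47, SE 0.16, limma adjusted p = 0.014).

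Related gene lists were counted against the same background of 32.9% called higher and 0.883% lower. Over tested protein-coding peaks alone, 22.9% were called higher. Of 7 ribosomal protein genes with other names, such as Rpsa and Rplp2, 5 carried 6 tested peaks, of which none was called, and their median log2 fold change was 0.44. Rplp2, a protein of the stalk, was the highest at 0.50 (SE 0.18, limma adjusted p = 0.016) and Rpsa the lowest at −0.14. Of 14 translation factors and other genes with a TOP motif, 13 carried 25 tested peaks, with 2 called higher, none lower and a median of 0.17. The called peaks were 1 at Eif3h, a subunit of initiation factor eIF3, and 1 of 2400 bp at Eef1a1, the elongation factor that brings tRNA to the ribosome. The latter scored 71, 67 and 52 in Ctrl and 134, 158 and 118 in Kmt5b sKO, with separate groups and a log2 fold change of 1.10 ± 0.21 SE (adjusted p of 3.5e-06, limma). The peak of 6800 bp at Eef1a1 had a log2 fold change of 0.31 (limma adjusted p = 0.069).

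For ribosome biogenesis, 18 of 24 genes had 29 tested peaks, with 1 called higher (Nop2, a methyltransferase of ribosomal RNA), none lower and a median of 0.14. Mitochondrial ribosomal proteins had 51 tested peaks in 34 genes, with 8 called higher, 1 lower and a median of 0.25. Of the peaks called higher, those at Mrpl15, Mrps28 and Mrpl47 had Ctrl means of 29.7, 23.3 and 25.3. These lay under the minimum of 30, so the peaks were tested through their Kmt5b sKO scores. The peak called lower, 24600 bp at Mrpl3, scored 1212, 1567 and 1131 in Ctrl and 776, 787 and 723 in Kmt5b sKO. The groups were far apart, with a log2 fold change of −0.76 ± 0.13 SE (adjusted p of 7.5e-07, limma). No peak of the table was assigned to a pseudogene with a symbol starting with Rpl or Rps and a digit. Pseudogenes of ribosomal proteins under other symbols were not searched for.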

How the data were processed

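DRIP-seq of 3 Ctrl and 3 Kmt5b sKO S9.6 libraries was analysed, and the 1 input library per genotype was not used here. Per the submitters' notes and the study's methods, the authors trimmed reads (Trimmomatic 0.39), aligned them to mm10 (GRCm38) and to the Drosophila spike-in genome (STAR 2.7.3a), removed duplicates (Picard 2.21.7), called peaks against input (Epic2, of the SICER family, 0.0.41) and merged them into union peaks. The score deposited by the authors is a sum over each union peak, scaled by spike-in reads and rounded. It was not treated as a read count, and the spike-in scaling could not be recomputed. The study lists fewer uniquely mapped reads for every Kmt5b sKO S9.6 library than for every Ctrl S9.6 library. Depth thus differed with genotype, and its bearing on the changes was not tested. Each peak was assigned by the authors to 1 Ensembl gene, and the table gives the distance of its centre to the start site in base pairs.

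Autosomal peaks with a mean score over 30 were tested with limma 3.58.1 in R 4.3.3 (lmFit, eBayes with trend, genotype as the only term, two-sided) on log2(score + 1), with Benjamini-Hochberg adjustment over 25815 peaks. The mean was taken over both genotypes, so a peak under 30 in Ctrl could pass through its Kmt5b sKO scores. Fold changes are on that log2 scale and understate the change of low peaks. limma estimated infinite prior degrees of freedom, which takes each variance from the trend alone. In simulated data for this comparison 195 of 200 changed peaks (97.5%, log2 change of 1.5) were recovered, with 16 false calls among 25815 peaks and 0 calls when none was changed. The planted change was larger than that of any member, at most 1.17. Simulated noise was normal around a trend of the kind the fit assumes, with no shift shared by all peaks. The simulation therefore does not give the recovery or the false calls at the changes reported here. With variances from the trend, a p-value sets a change against the spread between these libraries that is typical of peaks of like score. The spread of the single peak does not enter it. Positions use RefSeq Select transcripts and GENCODE vM21 genes on GRCm38. Starts are multiples of 200 and may lie 1 base before the browser's first base. Python 3.11.15, pandas 2.3.3, scipy 1.17.1, pysam 0.24.0 and matplotlib 3.10.9 were used.

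The members, gene lists and alternatives were chosen with earlier results of these data known. Named peaks were those called, the 5 with the highest mean score, the 5 with the highest Ctrl score per kb, the 5 largest changes each way, the longest peak and the shortest, and genes that are not structural. Others were named after their values were seen, for their span, their place near a threshold or their list. Alternatives were other pseudocounts, filters, thresholds, scalings, variance models and member definitions, a replicate block, X and Y included, and leaving out each library in turn. Some genes are not reported here by name, and 1 peak is left out of the plots of spans and fold changes.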

Additional observations from a re-analysis of the deposited data

How the results depend on the processing

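The calls and several directions depended on how the libraries were scaled against each other, and the spike-in reads behind the deposited scaling were not used here. The 5 higher and 0 lower calls were the same with both pseudocounts, without a level filter, with other variance models, with X and Y included and at an adjusted p under 0.05, and the median lay between 0.23 and 0.25 wherever one of these settings could move it. A t-test with the variance of each peak alone kept the 5 calls by a small margin. Its adjusted p was 0.041 at Rps23rg1, 0.063 at Rps15, 0.097 at Rpl41 and 0.050 and 0.066 at the short Rpl3 peaks. With the replicate block the counts were 5 and 0 and the median 0.24. Correlations of same-numbered deviations lay between −0.03 and 0.01, which gave no sign that replicate numbers pair the libraries. A shift common to all peaks of a library would not show in these correlations, so pairing was not excluded.

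Members called higher numbered 1 with a mean score over 100 (46 tested, background 12.3%), 3 with libraries scaled to 1 total, 1 after centring, 0 with quantile normalization, 1 relative to the length class, 2 at a fold change over 2, 3 relative to the median of all peaks (background 17.0%), 17 without a fold change minimum, 4 of 55 with structural proteins only (0 lower, median 0.24) and 2 on structural transcripts only. Leaving out each library in turn gave 4 to 8, with 8 without Ctrl replicate 2 and 4 without Kmt5b sKO replicate 3. For these fits, and at a fold change over 2, the share of all tested peaks called higher was not computed. Whether all peaks moved alike is therefore not known. Members called lower numbered 1 with the same total, 5 after centring, 1 with quantile normalization, 2 relative to the median and 2 without a fold change minimum, and 0 to 0 on leaving out each library. The median log2 fold change was 0.04 with the same total, −0.21 after centring, −0.0069 with quantile normalization, 0.024 relative to the length class and −0.11 relative to the median of all peaks, and 0.16 to 0.29 on leaving out each library. The alternatives relative to the median, without a fold change minimum and on structural transcripts were chosen after seeing the data. Relative to the length class or to the median of all peaks, only the fold change was shifted. The adjusted p was kept from the main fit, so these differences were not tested.

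Some single peaks turned sign. After centring, the log2 fold change was −0.21 at Rpl7a, −0.17 at Rps19, −0.24 at Rpl19, −0.13 at Rps18 and −0.42 at Rpl7l1, which was also −0.17 with the same total and −0.38 with quantile normalization. Leaving out each library in turn gave −0.40 to 0.10 at Rpl7, −0.19 to 0.0002 at Rpl21, −0.080 to 0.062 at Rps6 and −0.063 to 0.22 at Rpl7l1. Rpl7, Rpl21 and Rps6 turned positive and Rpl7l1 negative without Kmt5b sKO replicate 1. Rps6 also turned without Ctrl replicate 2 or Kmt5b sKO replicate 2, and Rpl7l1 without Ctrl replicate 1 or 3. The cause of these changes was not tested.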
